A study of Mus musculus with 5 samples.

Results

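The Ikaros family zinc finger factors are 5 mouse genes, Ikzf1 to Ikzf5, and were chosen by symbol from the count table. All 5 were found among the 24417 named genes, and all 5 were among the 14164 genes with enough counts to be tested. RNA-seq was done on cells from the colon lamina propria, the connective tissue under the gut epithelium. All the mice carried a Foxp3DTR-GFP allele paired with a loxp-Thy1.1-STOP-loxp-GFP allele, so both groups share a genotype with 1 GFP-marked Foxp3 allele and 1 reporter allele in which a stop signal follows Thy1.1. The Treg group (2 libraries) held GFP-positive cells. The reporter-null group (3 libraries) held Thy1.1-positive cells, in which the reporter allele is in use. Age and treatment were not given in the sources used here, and reporter-null replicate 1 is described by a joint number, 1 and 4, where every other library has a single one. The labels do not say that libraries came from separate animals, so p-values speak only for the spread among the 5 libraries, and that spread may be technical.

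Members of this family bind DNA through a cluster of zinc fingers near the start of the protein and pair with each other through fingers near its end. Ikaros (Ikzf1) and Aiolos (Ikzf3) act throughout lymphoid development and recruit chromatin complexes such as NuRD, Helios (Ikzf2) is a marker of many Treg cells and helps to keep their identity stable, Eos (Ikzf4) works with Foxp3 in silencing genes in Treg cells, and Pegasus (Ikzf5) is the most distant relative. The DNA-binding finger that is second in order in each coding sequence is shown here. Ikzf1 to Ikzf4 share it closely, and the Ikzf5 finger at that place differs. Sequences are the coding strand of GENCODE M21 transcripts (GRCm38), and capitals mark the codons of the 2 cysteines and 2 histidines that hold the zinc ion.
Ikzf1: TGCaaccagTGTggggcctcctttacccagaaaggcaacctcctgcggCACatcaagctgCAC
Ikzf2: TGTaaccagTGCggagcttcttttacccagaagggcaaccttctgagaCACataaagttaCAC
Ikzf3: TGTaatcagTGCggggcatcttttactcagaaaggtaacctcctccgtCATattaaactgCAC
Ikzf4: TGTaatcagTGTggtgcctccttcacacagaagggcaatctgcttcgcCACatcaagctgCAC
Ikzf5: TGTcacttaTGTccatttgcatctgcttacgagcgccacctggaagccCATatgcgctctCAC

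These stretches lie at chr11:11754024-11754086 on the plus strand for Ikzf1, and on the minus strand at chr1:69570581-69570643 for Ikzf2, chr11:98488940-98489002 for Ikzf3, chr10:128640229-128640291 for Ikzf4 and chr7:131392501-131392563 for Ikzf5. Each is 63 bases within 1 coding exon. Ikzf2 and Ikzf3 each match Ikzf1 at 51 of the 63 bases and Ikzf4 at 53, and in all 3 the codons encode the same 21 residues as in Ikzf1. Ikzf5 matches at 26 bases and 5 residues, which include the cysteines and histidines by which fingers were located. Fingers were matched by order only, so this finger of Ikzf5 need not be the counterpart of the others. At the level of reads the genes were nevertheless distinct. Over all annotated transcripts, the longest stretch shared exactly by any pair of members was 32 bases (Ikzf2 and Ikzf4), and no run of 50 bases, the read length in the labels, was shared between members.

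The 5 libraries held 17670420 to 22395169 counts, and levels are given as CPM, each gene's reads scaled to the size of its library after TMM adjustment. T cell markers were present throughout, with Cd3e at 1036 to 1260 CPM, while the CD8 T cell gene Cd8a stayed at 0.0445 to 0.542 CPM. Cd8b1, the other CD8 gene listed, had 11.6 and 11.1 CPM in Treg and 5.42, 3.41 and 7.34 CPM in reporter-null libraries. It had enough counts to be tested, unlike Cd8a, and did not pass (edgeR adjusted p = 0.118). Of 12 epithelial markers 0 passed in edgeR, DESeq2 or limma-voom, and 0 had an unadjusted p under 0.05. Their summed level was 352 CPM in Treg replicate 1 and 1560 CPM in reporter-null replicate 2, against 40.7 to 52.4 CPM in the other 3. These libraries, of opposite groups, stand apart.

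Ikzf2 and Ikzf4 fell in reporter-null cells, and no other member passed the test. A negative log2 fold change, given with its standard error (SE), means a lower level in reporter-null cells. Adjusted p-values are from the edgeR quasi-likelihood test over all tested genes, with a threshold of 0.05. Of the 5 members, 2 were lower and 0 higher, with 1 higher by DESeq2, 0 by limma-voom and 1 at an unadjusted p under 0.05 (Ikzf3). Over all tested genes 8.79% passed, 4.72% lower and 4.07% higher. An unadjusted p under 0.05 in edgeR was reached by 3199 of the 14164 genes. DESeq2 called 2321 of 19834 genes and limma-voom 1214 of 14164. Libraries of the groups did not overlap for 5 of the 5 members, which holds for 40.8% of all tested genes. The check of the labels held in all libraries, with Foxp3 at 764 and 770.0 CPM in Treg cells and 75.7 to 81.3 CPM in reporter-null cells, and Thy1 at 18.8 and 21.4 against 269 to 300.5 CPM.

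**Figure D1:**
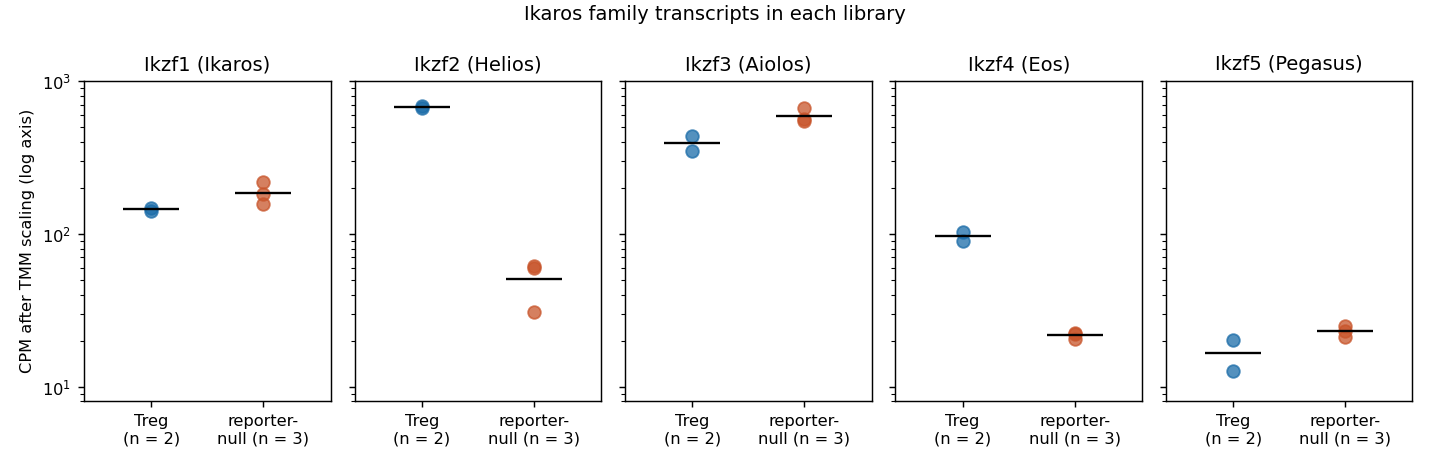
CPM after TMM scaling (log axis) of the 5 genes, with 1 point per library and a line at the group mean, for 2 Treg and 3 reporter-null libraries. Ikzf2 and Ikzf4 sit far lower in reporter-null cells, while the points of Ikzf1, Ikzf3 and Ikzf5 are close between the groups and slightly higher in reporter-null cells.

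Ikzf2, which encodes Helios, stood at 689 and 671 CPM in Treg replicates 1 and 2, and at 61.7, 30.9 and 59.98 CPM in reporter-null libraries 1 to 3. The Treg libraries lay close together, and reporter-null replicate 2 was the lowest of all. The means were 680 ± 12.97 (SD, n = 2) and 50.8 ± 17.3 CPM (SD, n = 3), a 13.4-fold difference (log2 fold change -3.74, SE 0.318, adjusted p = 0.00276 by edgeR). It ranked 48 of 668 called decreases by size. Behind these values were 12690 and 14504 reads in the Treg libraries and 1139, 643 and 1348 reads in the reporter-null libraries, so that Helios transcripts were still well counted in the latter. In bulk RNA, fewer cells with a transcript and less of it per cell cannot be told apart.

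Ikzf4, which encodes Eos, was at 89.3 and 103 CPM in Treg cells and at 22.2, 20.4 and 22.4 CPM in reporter-null libraries 1 to 3. The reporter-null libraries agreed closely with each other here, unlike for Ikzf2. Means were 96.3 ± 9.86 and 21.7 ± 1.10 CPM, a 4.44-fold difference (log2 fold change -2.15, SE 0.122, adjusted p = 0.000407 by edgeR), at rank 169 among the called decreases.

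Relative to the Treg mean, reporter-null cells kept 9.07%, 4.54% and 8.82% of the Ikzf2 level in replicates 1, 2 and 3, and 23.1%, 21.2% and 23.2% of the Ikzf4 level. For Foxp3 the same shares were 9.87%, 10.5% and 10.6%. The log2 ratio of Ikzf4 to Foxp3 was -3.10 and -2.90 in the Treg libraries and -1.77, -1.98 and -1.86 in the reporter-null libraries, a difference of 1.13 without overlap between the groups (exact permutation test, two-sided, p = 0.1, the smallest that 2 against 3 libraries allow). The log2 ratio of Ikzf2 to Foxp3 was -0.15 and -0.20 against -0.30, -1.39 and -0.44, a difference of -0.53 that came mostly from reporter-null replicate 2 (exact permutation p = 0.3). Reads per symbol do not say from which Foxp3 allele they came.

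Ikzf3, which encodes Aiolos, had 351 and 435 CPM in Treg cells and 566, 661 and 552 CPM in reporter-null libraries 1 to 3. Every reporter-null library was above both Treg libraries. The means were 393 ± 59.4 and 593 ± 59.5 CPM, a log2 difference of 0.59 (SE 0.149, 95% interval 0.24 to 0.95) with an unadjusted p of 0.00567 and an adjusted p of 0.0589 in edgeR, just short of the threshold. Without reporter-null replicate 2, which had the most Aiolos reads, the difference was 0.50 and passed (adjusted p = 0.0441). It also passed in DESeq2 (0.00153) and with no filter on low counts (0.0420), and over all 14 alternatives the adjusted p ran from 0.00153 to 0.363.

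Ikzf1, which encodes Ikaros, had 142 and 148 CPM in Treg cells against 181, 157 and 218 CPM in reporter-null libraries 1 to 3. The groups came close, with reporter-null replicate 2 only slightly above the higher Treg library. The log2 difference was 0.35 (SE 0.157, 95% interval -0.02 to 0.73) and did not pass (edgeR adjusted p = 0.248).

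Ikzf5, which encodes Pegasus, was the scarcest member in Treg cells, with 12.7 and 20.3 CPM. In reporter-null cells it had 23.1, 21.02 and 25.1 CPM, and Ikzf4 was slightly lower in each library. Treg replicate 1 was the library that stood lowest. The log2 difference of 0.48 (SE 0.232, 95% interval -0.07 to 1.04, edgeR adjusted p = 0.283) was 0.18 without Treg replicate 1 (0.744) and 0.87 without Treg replicate 2 (0.119), and passed in none of these. Exons of Pstk, a gene on the opposite strand that encodes a kinase for selenocysteine transfer RNA, overlap 81.3% of the annotated Ikzf5 exon bases, and no strand setting of the counts is stated in the sources used here. Reads of these genes may therefore be mixed. Pstk differed the other way, with 17.4 and 19.2 CPM in Treg and 17.3, 13.6 and 14.7 CPM among reporter-null libraries (log2 fold change -0.27, adjusted p = 0.450). Exons of other annotated genes overlapped those of Ikzf2 by 1.24% and of Ikzf4 by 0.617%.

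**Figure D2:**
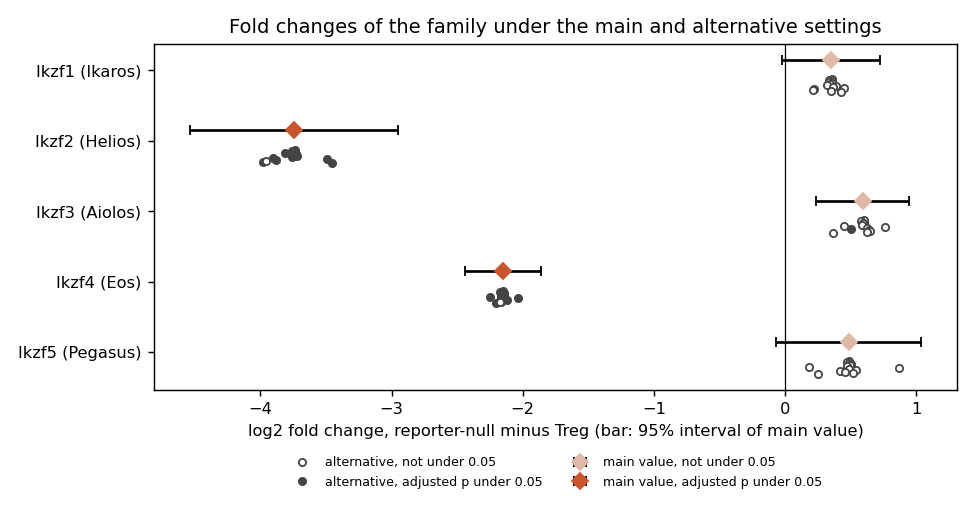
Log2 fold change (reporter-null minus Treg) of each gene, with the 95% interval of the main value as a bar and the 14 alternatives as points, filled where the adjusted p was under 0.05. Every alternative left Ikzf2 and Ikzf4 below 0 and Ikzf1, Ikzf3 and Ikzf5 above it, and 13 of the 14 called Ikzf2 and Ikzf4.

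The make-up of the family's reads differed between the groups. Helios held 53.7% and 48.7% of the reads of the 5 genes in the Treg libraries and 7.22%, 3.47% and 6.84% in the reporter-null libraries. Aiolos held 27.3% and 31.6% in Treg cells and 66.3%, 74.3% and 62.9% in reporter-null cells. Helios thus had the most reads in both Treg libraries, and Aiolos in all 3 reporter-null libraries. The mean share of Ikaros was 10.9 ± 0.177% in Treg and 21.2 ± 3.62% in reporter-null cells, that of Eos 7.23 ± 0.379% and 2.48 ± 0.166%, and that of Pegasus 1.23 ± 0.345% and 2.64 ± 0.255%. For each gene the groups did not overlap (exact permutation test, two-sided, p = 0.1, the smallest possible). Shares are not corrected for gene length and always add up to the whole, so a lower Helios share raises the others.

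**Figure D3:**
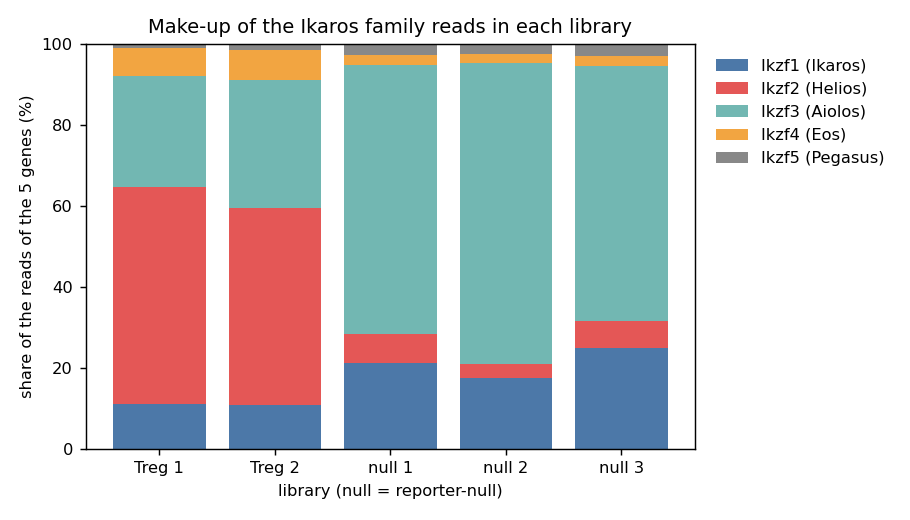
Share of the reads of the 5 genes that each gene took, in percent, with 1 stacked bar per library (null is reporter-null). The Ikzf2 part is 53.7% and 48.7% in the Treg libraries and 7.22% or less in the reporter-null libraries, where Ikzf3 takes at least 62.9%.

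The summed level of the family was also lower in every reporter-null library. It was 1283 and 1377 CPM in Treg cells and 854, 890.0 and 877 CPM in reporter-null cells. Ikzf2 and Ikzf4 together stood at 778 and 774 CPM against 83.9, 51.3 and 82.4 CPM. Ikzf1 and Ikzf3 together stood at 492 and 583 CPM in Treg cells and at 747, 818 and 769 CPM in reporter-null cells. The mean difference was -704 CPM for the first pair and 240.2 CPM for the second (exact permutation p = 0.1 for each of the 3 sums).

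Because a longer transcript yields more reads, levels of different genes were compared as CPM per kilobase of annotated protein-coding transcript. In Treg cells the order was Ikzf3 (107 ± 16.2 CPM per kilobase), Ikzf2 (70.8 ± 1.35), Ikzf1 (25.1 ± 0.848), Ikzf4 (16.5 ± 1.69) and Ikzf5 (3.32 ± 1.09), and the libraries of neighbours in that order did not overlap. In reporter-null cells Ikzf3 (162 ± 16.3) and Ikzf1 (32.04 ± 5.33) came first. Ikzf2 (5.30 ± 1.81), Ikzf5 (4.65 ± 0.411) and Ikzf4 (3.72 ± 0.188) followed, and the 3 libraries of Ikzf2 spanned the values of the other two. The Treg order turned with the length used. With all annotated exons, which add non-coding transcripts and were tried after seeing the data, Ikzf2 came first in Treg cells (58.5 ± 1.12 CPM per kilobase) and Ikzf3 second (44.9 ± 6.78), so no order of Helios and Aiolos in Treg cells can be given. Ikzf3 stayed first in reporter-null cells (67.7 ± 6.79) with Ikzf1 second, and the ranks of the other members were the same in both groups.

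Ratios between members, taken within each library, do not depend on library scaling. All 10 pairs were compared. In 7 the groups did not overlap (exact permutation p = 0.1 each, adjusted p = 0.143 over the 10), and these were the pairs of Ikzf2 or Ikzf4 with each of the other members and with each other. The log2 ratio of Ikzf2 to Ikzf3 was 0.97 and 0.63 in the Treg libraries and -3.20, -4.42 and -3.20 in the reporter-null libraries, a 21.2-fold shift. That of Ikzf2 to Ikzf4 was 2.95 and 2.70 against 1.47, 0.60 and 1.42, a 3.16-fold shift, and so lower in 3 of 3 reporter-null libraries. Among Ikzf1, Ikzf3 and Ikzf5 the mean ratios differed between the groups by at most 1.20-fold (exact permutation p from 0.4 to 0.8).

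By a fixed measure of likeness, the root mean square difference between centred log2 CPM profiles over the 5 libraries, the genes most like Ikzf2 among 9098 candidates were Nid2 (0.21), Nrn1 (0.23), Rragd (0.39) and Ky (0.39). Nid2 encodes the basement membrane protein nidogen-2, Nrn1 the surface protein neuritin, and Rragd a GTPase that signals amino acid supply to mTORC1. Nrn1, for instance, had 34.1 and 38.7 CPM in Treg cells and 2.11, 1.39 and 2.85 CPM in reporter-null cells, lowest in reporter-null replicate 2 as Ikzf2 was. Most like Ikzf4 were Ldhb (0.089), a lactate dehydrogenase subunit, Elovl6 (0.095), a fatty acid elongase, Ifit1bl1 (0.10), and Cd83 (0.11), a surface protein of activated lymphocytes and dendritic cells. Cd83 had 1294 and 1661 CPM in Treg cells and 305, 264 and 341 CPM in reporter-null cells. With 2 groups and 5 libraries, such likeness mostly describes the size of the difference between the groups.

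Of 36 tested genes of 3 lists of chromatin complexes and corepressors, 3 passed, which is 8.33% beside 8.79% of all tested genes. Ikaros and Aiolos recruit NuRD, a remodelling and deacetylase complex, and of its 14 tested genes 0 passed the edgeR test (median log2 fold change 0.13, against 0.02 over all tested genes). At an unadjusted p under 0.05 there were 3, all higher, and DESeq2 called 2 and limma-voom 0. Over all genes, 3199 of 14164 had such a p, DESeq2 called 2321 of 19834 and limma-voom 1214 of 14164. In edgeR, 1 passed without reporter-null replicate 2 and 2 without reporter-null replicate 3. With upper quartile in place of TMM scaling, with no filter, or with a filter at a CPM of 1 in 2 libraries, 1 passed as well. Mta1 lay nearest the threshold (log2 fold change 0.73, edgeR adjusted p = 0.0515) and was called in 6 of 14 alternatives. Of 10 other corepressor genes 2 were higher and 0 lower by edgeR (also 0 lower at an unadjusted p under 0.05, by DESeq2 and by limma-voom), with a median of 0.21. Sap30, a subunit of the Sin3 complex, rose from 16.3 and 20.8 CPM to 54.0, 56.2 and 39.7 CPM (log2 fold change 1.43, SE 0.206, adjusted p = 0.00821 by edgeR), and Ncor1, a nuclear receptor corepressor, rose by 0.57 (SE 0.113, adjusted p = 0.0270). Neither passed without Treg replicate 1 (0.0905 for Sap30 and 0.214 for Ncor1) or Treg replicate 2 (0.0533 and 0.155), and Ncor1 did not pass without reporter-null replicate 1 (0.103) either. Ctbp1, the corepressor through which Eos acts, had 324 and 313 CPM in Treg and 377, 425 and 291 CPM in reporter-null cells and did not pass (adjusted p = 0.587).

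Of 12 genes of the BAF remodelling complex, 1 was lower and 0 higher by edgeR (5 higher at an unadjusted p under 0.05, 3 by DESeq2 and 0 by limma-voom), with a median of 0.24. This was Smarcd3, a scarce subunit, with 7.28 and 8.88 CPM in Treg and 2.55, 2.02 and 1.96 CPM among reporter-null libraries (log2 fold change -1.89, adjusted p = 0.0168 by edgeR), a call lost without Treg replicate 1 (0.0988), Treg replicate 2 (0.134) or reporter-null replicate 1 (0.0781). Of 11 genes for the turnover and phosphorylation of Ikaros proteins 0 passed in edgeR, and these include Crbn, the ligase receptor through which thalidomide analogues degrade Ikaros and Aiolos (147 and 136 CPM against 145, 119 and 226 CPM, adjusted p = 0.741). The median of those 11 was 0.08. At an unadjusted p under 0.05 there were 1 higher and 2 lower, DESeq2 called 1 in each direction and limma-voom 0. The counts over all genes by these rules are those given beside NuRD.

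**Figure D4:**
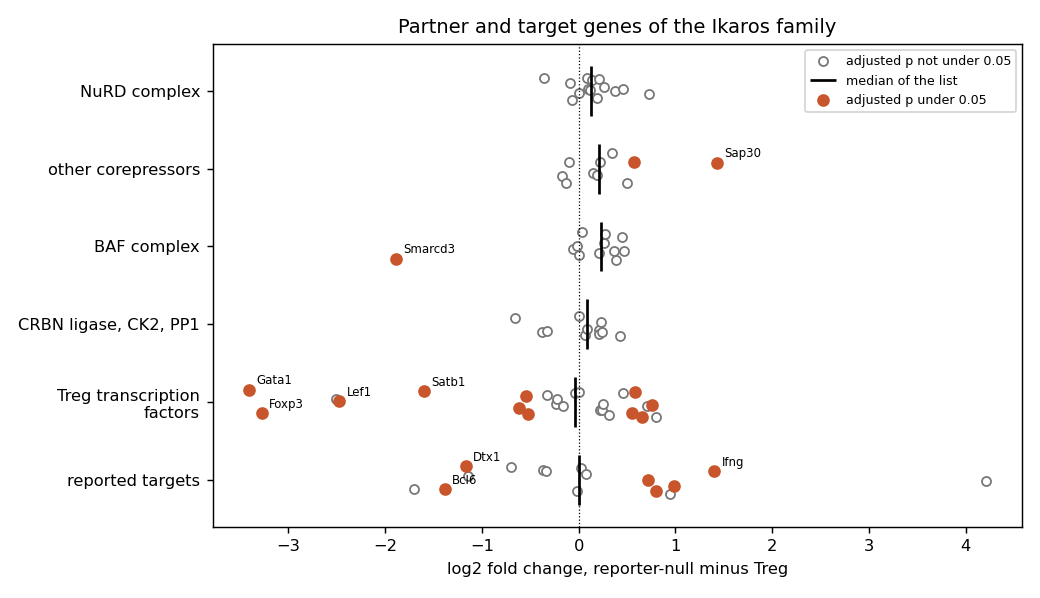
Log2 fold change (reporter-null minus Treg) of each tested gene in 6 lists of partners and targets, filled where the adjusted p was under 0.05, with a line at the list median. The 3 calls among the chromatin complexes and corepressors are 2 higher and 1 lower, and calls lie on either side of 0 among the Treg transcription factors and reported targets.

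Transcription factors that act with Foxp3 or Eos in Treg cells moved in both directions. Of 25 tested, 7 were lower and 4 higher (median -0.04), and the list includes Foxp3 itself. Over all tested genes 4.72% were lower and 4.07% higher. Satb1, a chromatin organiser, fell from 877 and 652 CPM to 212, 320 and 227 CPM (log2 fold change -1.60, SE 0.217, adjusted p = 0.00741 by edgeR). Lef1, a factor of the Wnt pathway, fell from 191 and 171 CPM to 31.95, 44.4 and 21.6 CPM (-2.47, SE 0.294, adjusted p = 0.00726). Gata1, best known from red cell precursors, was low throughout and fell from 8.36 and 6.84 CPM to 1.19, 0.336 and 0.623 CPM (-3.40, adjusted p = 0.0147). Irf4, a factor of effector Treg and Th17 cells, overlapped between the groups, with 119 and 273 CPM in Treg and 351, 262 and 411 CPM among reporter-null libraries (0.80, SE 0.414, adjusted p = 0.354), and its difference was 0.32 without Treg replicate 1 and 1.53 without Treg replicate 2, passing in neither case (0.678 and 0.0799). The other lower genes were Bach2, Foxo1 and Stat5a, by -0.62 to -0.53, and the higher ones Runx1, Runx3, Tcf7 and Nfatc1, by 0.55 to 0.76. Over 14 alternatives the log2 fold change ran from -1.81 to -1.37 for Satb1, -2.77 to -2.25 for Lef1 and -3.99 to -2.92 for Gata1. Over all genes 1245 passed with every library and 467 without reporter-null replicate 1. The counts in this list also fell when some single libraries were left out. They were 1 lower and 0 higher without Treg replicate 1, 2 and 0 without Treg replicate 2, and 4 and 0 without reporter-null replicate 1. Satb1 was not called without Treg replicate 1 (0.0741), and Lef1 and Gata1 without Treg replicate 1 (0.0776 and 0.126) or Treg replicate 2 (0.0644 and 0.0865).

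Among 16 tested genes that Ikaros family factors have been reported to regulate in lymphocytes, 4 were higher and 2 lower, with a median log2 fold change of 0.00. The shares over all tested genes were 4.07% higher and 4.72% lower. Bcl6, the regulator of follicular helper cells, fell from 58.6 and 56.2 CPM to 17.9, 24.2 and 23.9 CPM (-1.38, SE 0.164, adjusted p = 0.00416 by edgeR), and Dtx1, a Notch pathway ligase, fell from 236 and 181 CPM to 104, 97.2 and 77.6 CPM (-1.16, adjusted p = 0.00927). Cd4 rose from 682 and 720 CPM to 1555, 1348 and 1271 CPM (0.99, adjusted p = 0.00796), and Ifng, the Th1 cytokine, rose by 1.40 (SE 0.219, adjusted p = 0.0116). The other higher genes were Prdm1 and Notch1. Il2, which Ikaros, Helios, Aiolos and Eos are all known to hold down, was at 0.109 and 0.509 CPM in Treg and at 5.04, 1.73 and 10.9 CPM in reporter-null cells without passing (adjusted p = 0.0728), and passed without reporter-null replicate 2 (0.00116). Il10 was at 916 and 928 CPM against 469, 232 and 553 CPM (adjusted p = 0.146), and also passed without reporter-null replicate 2 (0.00215). Tbx21 had 53.8 and 55.0 CPM against 62.4, 65.0 and 44.0 CPM (adjusted p = 0.871). The counts were 1 higher and 0 lower without Treg replicate 1, and 2 higher and 2 lower without Treg replicate 2 or reporter-null replicate 1. Bcl6 and Dtx1 were not called without Treg replicate 1 (0.0536 and 0.0980), nor was Cd4 without Treg replicate 1 (0.110) or Treg replicate 2 (0.0827).

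Over the 6 lists, which hold 88 different tested genes, 10 were higher and 10 lower. That is 22.7% of them, against 8.79% of all tested genes. Calls were 11 of 25 Treg transcription factors and 6 of 16 reported targets. They were 3 of 36 genes of the chromatin complexes and corepressors and 0 of 11 for turnover. The lists were chosen with earlier results of these data known and include Foxp3, whose reporter alleles define the groups. These shares therefore do not measure enrichment. The counts were 1 and 1 without Treg replicate 1, 2 and 4 without Treg replicate 2, and 3 and 6 without reporter-null replicate 1.

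With both libraries of high epithelial reads, Treg replicate 1 and reporter-null replicate 2, left out, the log2 fold change was -3.46 for Ikzf2 (edgeR adjusted p = 2.74e-54), -2.21 for Ikzf4 (4.05e-25) and 0.37 for Ikzf3 (0.329), a fit that leaves 1 Treg library and takes its spread from the other group. The counts without them were 2 lower and 0 higher in the family, 7 lower and 3 higher among the Treg transcription factors, and 4 lower and 4 higher among the reported targets. B and plasma cells also express Ikzf1 and Ikzf3. Of 8 tested B and plasma cell markers 0 were higher (0 also in DESeq2 and limma-voom) and 1 lower, Cd79b, and their sum, mostly Jchain, was 1438 and 429 CPM in Treg and 394, 909 and 443 CPM in reporter-null cells. Of 2 tested gamma-delta T cell markers 1 was higher, Blk, with 2.01 and 3.75 CPM in Treg and 36.8 to 54.3 CPM in reporter-null cells. The other, Sox13, had 1.79 and 0.139 CPM in Treg and 0.0542, 3.94 and 0.178 CPM in reporter-null libraries (edgeR adjusted p = 0.912). Only these 2 of the 6 genes listed for that cell type had a row of counts. Calls in other marker lists were Cd2 (lower) and Cd4 (higher) among 8 T cell, Kit among 2 mast cell and Pdgfrb among 6 stromal markers (both higher), with 0 of 9 myeloid markers (1 lower at an unadjusted p under 0.05, 0 in DESeq2 and limma-voom) and 0 of 1 CD8 T cell markers (lower in DESeq2). The part of these cells in the Ikzf1 and Ikzf3 values was not tested.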

How the data were processed

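RNA from 5 libraries was amplified with SMART-Seq v4 and sequenced as paired 50-base reads, per the labels' protocols. The authors deposited 1 table of raw whole-number counts per gene symbol, per the file headers. Per the submitters' processing notes the tools include DESeq, with no version or role stated. The aligner, genome build, annotation and strand setting were not given in the sources used here. The 4 rows without a gene name (at most 0.00492% of a library) were left out. No pair of replicates agreed within sampling noise (chi-square per degree of freedom 21.3 to 91.2).

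Counts were filtered with filterByExpr (minimum count 10, minimum total 15), TMM-scaled and tested in R 4.3.3 with the robust quasi-likelihood F test of edgeR 4.0.16 across all 14164 genes, with Benjamini-Hochberg adjustment. The common biological coefficient of variation was 0.401. The SE is the log2 fold change divided by the square root of F. Shares and ratios between genes were compared by exact permutation over libraries. DESeq2 1.42.0 and limma-voom 3.58.1 were alternatives. The steps were tested on simulated counts. Intervals cover the spread between libraries.

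The members and lists were chosen with earlier results of these data known, and the lists share genes. Named genes were all members, the 4 genes most like each called member (average log2 CPM of at least 3, without gene models, receptor segments or mitochondrial genes), up to 4 called genes per list, and Foxp3, Thy1, Irf4, Satb1, Lef1, Il2, Ifng, Il10 and Tbx21. Pstk, Ctbp1, Crbn, Mta1, the marker genes and the further called list genes were named after their values were seen. Gene lengths, overlaps and sequences came from GENCODE M21 (GRCm38).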

Additional observations from a re-analysis of the deposited data

How the results depend on the processing

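Of 203 alternative values 160 stayed on the main value's side of the threshold or near its size. Many of the 203 are counts of genes, which have no direction to reverse. Among the fold changes and family shares, 0 reversed. The log2 fold change of Ikzf2 ran from -3.98 to -3.46 and that of Ikzf4 from -2.25 to -2.04 over 14 alternatives, and without 1 library at a time their adjusted p-values (edgeR) were at most 0.0361 and 0.0105. With 1 Treg library left, that library is taken to vary like the other group.

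The labels give replicate numbers in the titles and other numbers in the descriptions, and do not say that either marks a shared animal. Deviations from the group means correlated at 0.602 and 0.481 between libraries sharing a description number, and at -0.511 and -0.602 between those sharing a title number. With 2 Treg libraries these deviations are mirror images, so each value has its negative for the other Treg library. Treg replicate 2 and reporter-null replicate 1, which share neither number, correlated at 0.511. The correlations therefore cannot show which number, if either, marks a shared animal. A replicate block on either number leaves 1 degree of freedom in the edgeR fit. With the block on the description number, 2 members were lower and 0 higher, as without it, and Irf4 passed (0.86, adjusted p = 0.00790). With the block on the title number, Ikzf2 (-3.96, adjusted p = 0.0666) and Ikzf4 (-2.17, 0.0586) did not pass, so that 0 members were lower. In that fit 24 genes passed in all (12 higher, 12 lower), with 0 higher and 1 lower in the partner and target lists.

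Over all genes, 1245 passed (577 higher, 668 lower). DESeq2 called 2321 (1208 higher, 1113 lower) and 18 list genes higher, and leaving out both Treg replicate 1 and reporter-null replicate 2, an alternative chosen after seeing the data, gave 2152 (944 higher, 1208 lower). Leaving out 1 library gave 341 to 2035 genes in all, 146 to 926 higher and 192 to 1109 lower. In the lists it gave 1 to 14 higher and 1 to 11 lower.

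Ikzf3 passed with DESeq2 (0.60, adjusted p = 0.00153), with no filter (0.60, 0.0420) and without reporter-null replicate 2 (0.50, 0.0441), each making 1 member higher in place of 0, and leaving out 1 library gave 0.45 to 0.76 for its log2 fold change. The change in family share, in percentage points, was -41.7 for Ikzf2 and 33.0 for Ikzf3 without both libraries named above (main -45.3 and 38.4), and leaving out 1 library gave -5.01 to -4.48 for Ikzf4. Ikzf5 had the fewest reads of the 5 genes in the Treg libraries, 233 and 439.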
